A study of Homo sapiens with 2 samples.

Results

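Transcripts of 9 genes of the major histocompatibility complex (MHC) class I pathway were examined in GM12878, an Epstein-Barr virus transformed B-lymphoblastoid cell line, by nanopore direct RNA sequencing. The genes were taken by name from the table of transcript models: the heavy chain genes HLA-B, HLA-C, HLA-E and HLA-F, the light chain gene B2M, the peptide transporter genes TAP1 and TAP2, and the loading genes TAPBP and PDIA3. They are 9 of the 16645 annotated genes with a read, and 992 of the 237608 models belong to them. The series comprises 1 group of GM12878 cells, for which the labels name no treatment, with 2 libraries, titled replicate 1 and replicate 2, both made from depleted RNA with the SQK-RNA002 kit on FLO-MIN106D flow cells. No second condition exists, so each test below compares the reads of these 2 libraries. The labels do not say whether the libraries came from separate cultures, so a p-value measures only the difference between these libraries, which may be technical.

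MHC class I molecules display short peptides from inside the cell to cytotoxic T cells. In the endoplasmic reticulum a heavy chain pairs with beta-2 microglobulin, and the TAP1-TAP2 transporter brings in peptides from the cytosol. Tapasin, the product of TAPBP, and the disulfide isomerase PDIA3 (ERp57) hold the empty molecule beside the transporter until a peptide binds. B-lymphoblastoid lines are professional antigen-presenting cells and are known for abundant class I on their surface.

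The libraries numbered 1360368 reads (replicate 1) and 1510998 reads (replicate 2). Levels are counts scaled to a common library total (CPM), on which a single read equals 0.735 CPM in replicate 1 and 0.662 in replicate 2. In direct RNA sequencing 1 strand gives 1 read, so CPM is a level per molecule read and was not divided by length unless this is stated. The 9 genes took 11167 and 13093 reads, 0.821% and 0.867% of the libraries. Of their 992 models, 357 were read in both libraries, 130 had at least 5 reads in each, and 544 rested on a single read. The B cell markers were all read, 7 of 7, from PAX5 at 43.0 CPM to CD74 at 7927 CPM, with summed levels of 9089 and 9443 CPM. Markers of monocytes summed to 2.94 and 5.29 CPM, of erythroid cells to 0.735 and 0, of fibroblasts to 1.47 and 1.99 and of hepatocytes to 0 and 0.662 CPM, with LYZ, HBB, COL1A2 and ALB among those at 0. Of the T cell markers, CD3D, CD3G and CD8A were at 0 in both libraries, CD3E had 5 and 16 reads, and TRAC stood at 154 and 147 CPM. A count of 0 allows up to 2.21 CPM in replicate 1 and 1.99 in replicate 2.

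The heavy chain genes are close to each other in exon 4, which encodes the alpha 3 domain, the part that binds CD8. Over the coding sequence of the most-read models, HLA-B and HLA-C shared 91.5% of aligned bases (1005 of 1098), while HLA-E and HLA-F shared 80.7%. Identity to HLA-B in exon 4 was 93.5% for HLA-C, 92.0% for HLA-E and 90.9% for HLA-F. A read of this exon alone has 18, 22 or 25 bases that tell these genes from HLA-B, and how reads of near-identical stretches were assigned is not stated, so counts of single heavy chain genes carry that uncertainty. The 4 exons, 276 bases each, are given 5′ to 3′ on the coding strand from GRCh38, with capitals marking the bases that differ from HLA-B. They are the reference sequence and not the alleles of this line.
HLA-B-249, chr6:31355317-31355592 (- strand): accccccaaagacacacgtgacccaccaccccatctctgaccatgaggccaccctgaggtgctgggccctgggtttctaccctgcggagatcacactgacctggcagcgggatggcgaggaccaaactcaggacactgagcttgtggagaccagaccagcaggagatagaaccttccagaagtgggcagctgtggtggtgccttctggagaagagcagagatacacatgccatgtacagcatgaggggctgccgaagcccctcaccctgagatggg
HLA-C-201, chr6:31270210-31270485 (- strand): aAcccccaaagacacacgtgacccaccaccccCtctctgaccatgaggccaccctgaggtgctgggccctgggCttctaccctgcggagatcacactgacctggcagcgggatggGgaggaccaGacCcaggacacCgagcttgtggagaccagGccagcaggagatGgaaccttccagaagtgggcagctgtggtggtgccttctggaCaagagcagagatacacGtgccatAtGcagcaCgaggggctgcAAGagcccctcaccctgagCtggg
HLA-E-201, chr6:30491137-30491412 (+ strand): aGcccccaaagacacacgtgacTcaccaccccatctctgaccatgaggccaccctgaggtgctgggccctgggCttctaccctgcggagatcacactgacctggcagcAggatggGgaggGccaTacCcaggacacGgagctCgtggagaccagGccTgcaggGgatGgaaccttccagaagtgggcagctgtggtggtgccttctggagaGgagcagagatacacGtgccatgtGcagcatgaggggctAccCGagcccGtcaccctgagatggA
HLA-F-217, chr6:29725031-29725306 (+ strand): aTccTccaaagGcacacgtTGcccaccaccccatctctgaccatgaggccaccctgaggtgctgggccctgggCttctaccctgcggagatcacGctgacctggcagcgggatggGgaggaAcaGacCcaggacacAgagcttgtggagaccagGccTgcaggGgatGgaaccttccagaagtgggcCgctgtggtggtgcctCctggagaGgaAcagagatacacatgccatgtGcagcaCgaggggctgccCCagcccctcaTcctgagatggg

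B2M and HLA-B were the most abundant of the 9 genes and TAP2 the least. The order by mean CPM was B2M, HLA-B, HLA-C, HLA-E, PDIA3, TAP1, HLA-F, TAPBP and TAP2, and the ranges of neighbours over the 2 libraries were apart except for TAP1 and HLA-F. Among all annotated genes B2M ranked 45, HLA-B 77, HLA-C 141 and HLA-E 212, while TAP2 ranked 2898. Divided by the length of the most-read annotated model, the order changed in 1 place: HLA-F, at 181 CPM per kilobase, stood above PDIA3 at 103 and TAP1 at 80.0. Without genomic models, which do not follow the splicing of a gene, and scaled to the reads left, TAPBP at 35.4 CPM lay below TAP2 at 37.8. With annotated models alone, scaled to the reads in such models, B2M was at 5262 CPM in place of 3124, while HLA-B was at 1601, HLA-C at 760.4, HLA-E at 241, TAPBP at 26.4 and TAP2 at 21.1. Fewer expressing cells and less RNA per cell cannot be told apart in bulk RNA.

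**Figure D1:**
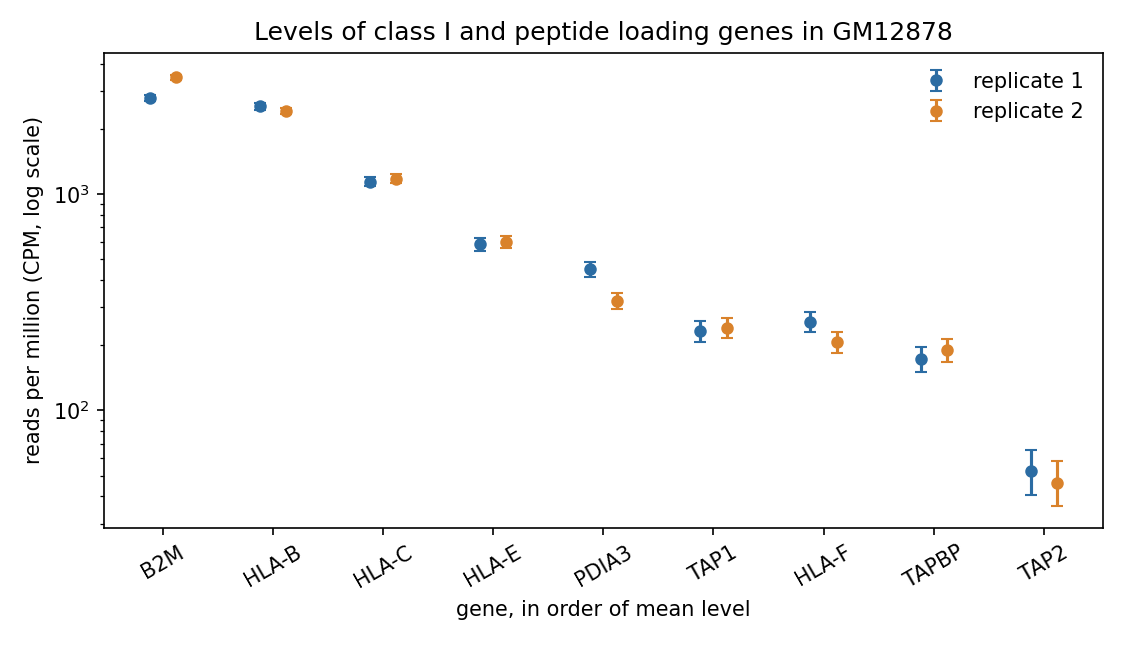
Level of each gene in the 2 libraries, in CPM on a log axis, with genes in order of mean level; points are libraries and bars are 95% intervals from counting error only. B2M was higher in replicate 2 and PDIA3 lower, and the intervals of the 2 libraries overlap for the other genes except HLA-F.

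Of the heavy chains, HLA-B (ENSG00000234745.10, chromosome 6, 31269491 to 31357188, minus strand, GRCh38) stood at 2535 CPM in replicate 1 and 2424 in replicate 2, from 3449 and 3663 reads, a mean of 2479.8 ± 78.6 (SD, n = 2). HLA-C (ENSG00000204525.16, chromosome 6, 31268749 to 31272130, minus strand) stood at 1141 and 1175 CPM, a mean of 1158 ± 23.9. These classical heavy chains present peptides to T cells and are ligands of killer cell receptors, and HLA-B had 2.22 and 2.06 times the reads of HLA-C. The annotated span of HLA-B overlaps part of HLA-C because of 1 long annotated transcript, HLA-B-258, which had no read. HLA-E (ENSG00000204592.8, chromosome 6, 30489467 to 30494205, plus strand), which presents leader peptides of other class I chains to NKG2A receptors, had 586 and 599.6 CPM, a mean of 593 ± 9.71. HLA-F (ENSG00000204642.13, chromosome 6, 29722775 to 29738528, plus strand), a non-classical chain, had 257 and 206 CPM, a mean of 232 ± 35.9. The libraries were close for HLA-B, HLA-C and HLA-E, and replicate 1 was the higher for HLA-F.

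B2M (ENSG00000166710.18, chromosome 15, 44711487 to 44718877, plus strand), whose protein pairs with every class I heavy chain, was read 3788 times in replicate 1 and 5233 times in replicate 2, at 2785 and 3463 CPM, a mean of 3124 ± 479.9 (SD, n = 2). Replicate 2 was higher, by 0.31 on the log2 scale. Of its annotated models, B2M-204 had 2332 and 2497 reads and B2M-213 had 1025 and 1723. The ratio of B2M reads to the summed reads of the 4 heavy chains was 0.616 (95% exact interval 0.592 to 0.642) in replicate 1 and 0.786 (0.758 to 0.815) in replicate 2, and these intervals do not overlap. Other heavy chains that use B2M are not analysed here.

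TAP1 (ENSG00000168394.11, chromosome 6, 32845209 to 32853978, minus strand) had 316 and 364 reads, or 232 and 241 CPM, a mean of 237 ± 6.09 (SD, n = 2). TAP2 (ENSG00000204267.13, chromosome 6, 32821833 to 32838780, minus strand), which encodes the partner chain of the same heterodimer, had 71 and 70 reads, or 52.2 and 46.3 CPM, a mean of 49.3 ± 4.15. TAP1 was above TAP2 in both libraries, by a ratio of reads of 4.45 (95% exact interval 3.43 to 5.84) and 5.20 (4.02 to 6.82). The ratio was wider, at 6.52 and 7.87, when models that do not match the splicing of the gene were left out. A further annotated gene on the same strand, AL669918.1, overlaps TAP2 and held 13 and 17 reads, and how the counting divided reads between these genes is not stated.

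TAPBP (ENSG00000231925.11, chromosome 6, 33299694 to 33314387, minus strand), which encodes the bridging chaperone tapasin, had 172 and 189 CPM, a mean of 181 ± 12.2 (SD, n = 2). PDIA3 (ENSG00000167004.12, chromosome 15, 43746392 to 43773279, plus strand), which shapes disulfide bonds in the loading complex and in other glycoproteins, had 610 and 484 reads, or 448 and 320.3 CPM, a mean of 384 ± 90.6. PDIA3 was lower in replicate 2, and its ratio to TAPBP was 2.61 in replicate 1 and 1.69 in replicate 2. Most TAPBP reads did not match the splicing of the gene, and without such models the ratio was 9.54 and 19.6, higher in replicate 2.

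Tested against the library totals with a two-sided exact binomial test, with Benjamini-Hochberg adjustment over the 10634 genes that had at least 10 reads, 2 of the 9 genes passed a threshold of 0.05, and 5.05% of all genes tested did. With a minimum of 50 reads, which all 9 genes reach, 9.62% of 6105 genes passed. B2M was higher in replicate 2 (log2 ratio 0.31, adjusted p = 4.00e-22, exact binomial test) and PDIA3 was lower (log2 ratio -0.48, adjusted p = 3.29e-06). The direction shares among all genes were 2.72% higher and 2.33% lower. HLA-F missed the threshold, at a log2 ratio of -0.32 (adjusted p = 0.0792, exact binomial test). The other 6 lay between -0.17 for TAP2 and 0.14 for TAPBP, with adjusted p from 0.344 to 0.931 by the same exact test. The median log2 ratio was 0.03 over the 9 genes and 0.01 over all genes tested. Counted over known models alone, where the median of all genes was -0.26, HLA-B (-0.37), HLA-F (-0.79) and TAP1 (-0.62, adjusted p = 0.00438, exact binomial test) also passed as lower in replicate 2, and HLA-C (-0.10), HLA-E (-0.39) and TAPBP (-1.004) turned to lower without passing.

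The table sorts each model by how it matches the annotation, and the 9 genes differed widely in this. Known models are annotated transcripts, and incomplete splice matches (ISM) hold only some consecutive junctions of one. NIC models join annotated splice sites in a new combination, NNC models use a splice site that is not annotated, and genomic models lie over a gene but do not follow its splicing. B2M was read mostly as known models, 88.7% of its reads in replicate 1 and 80.9% in replicate 2. TAPBP was the opposite case: 11.5% and 4.20% of its reads were in known models and 73.1% and 91.6% in genomic models. HLA-E had 23.7% and 40.4% in genomic models and TAP2 32.4% and 34.3%, while HLA-C had 0 and 1 such reads.

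**Figure D2:**
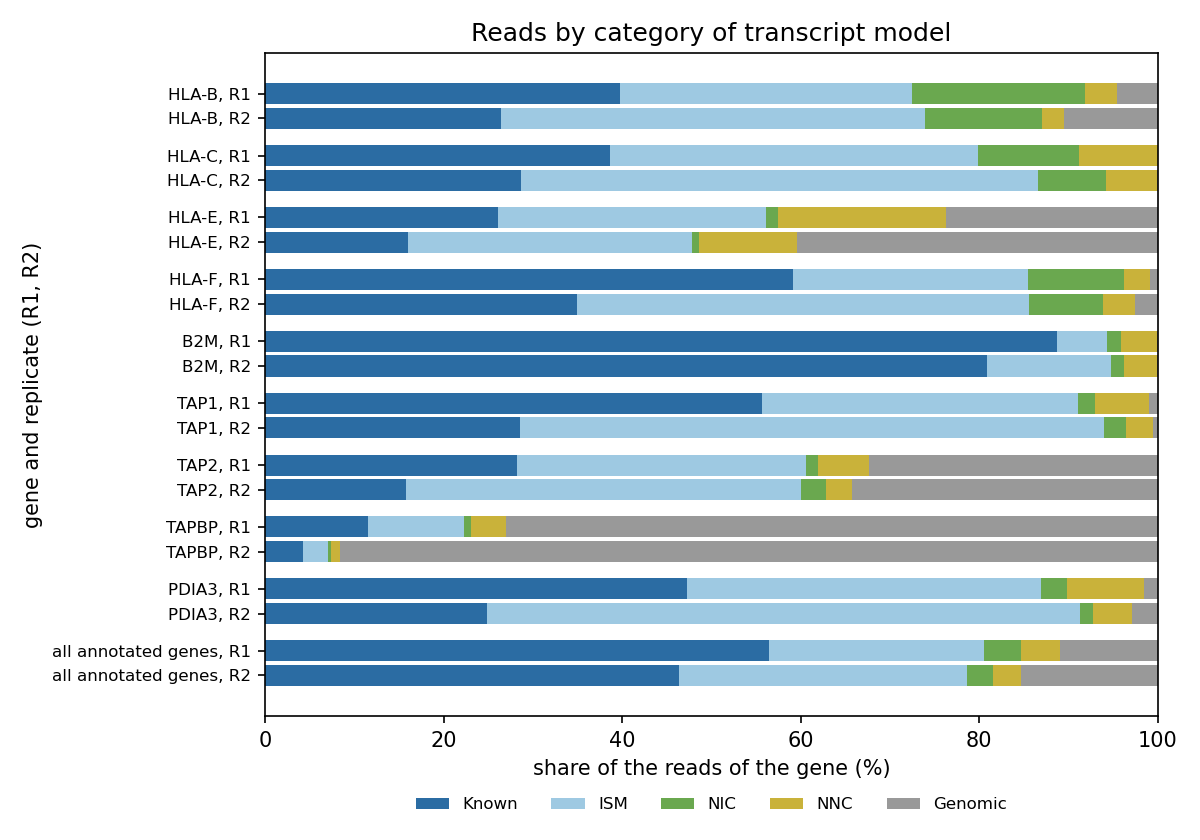
Share of the reads of each gene by category of transcript model, as stacked bars, with 1 bar for each replicate and all annotated genes at the bottom. Known models took fewer of the reads in replicate 2 in all 9 genes, and TAPBP stands apart by its genomic reads, at 73.1% and 91.6%.

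Together, the 9 genes had 56.0% and 47.4% of their reads in known models, beside 56.5% and 46.4% over all annotated genes. The known share was lower in replicate 2 in 9 of 9 genes, and the ISM share was higher in 8 of 9, with TAPBP the exception. The NIC share of the 9 genes was 8.78% and 5.70%, beside 4.13% and 2.90% over all genes. Most of it came from the classical heavy chains. HLA-B had 19.4% and 13.1% of its reads in 127 NIC models, 44 of them read in both libraries, and HLA-C had 11.3% and 7.55% in 85 NIC models, 22 of them in both. Among the 3879 genes with at least 100 reads, the pooled NIC share of HLA-B, 16.2%, stood at percentile 95.2, and the median was 1.91%. HLA-E led in the NNC category, with 18.8% and 11.0% of its reads, at percentile 96.3 of the pooled NNC share.

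The NIC and NNC reads were spread over many models, and a few had many reads. The leading NIC model of HLA-B (ENCODEHT000565681, 7 exons, 1503 bases) had 267 and 174 reads, 7.74% and 4.75% of the gene. In HLA-C the leading NIC model (ENCODEHT000564234, 8 exons, 1519 bases) had 26 and 25 reads, and the leading NNC model (ENCODEHT000564230, 7 exons, 1532 bases) had 56 and 39. The leading NNC model of HLA-E (ENCODEHT000556147, 7 exons, 1671 bases) had 97 and 54 reads, 12.2% and 5.96% of the gene. These models had 7 or 8 exons, close to the 8 exons of the leading annotated models. B2M had an NNC model of 3 exons and 941 bases (ENCODEHT000243871) with 113 and 141 reads and a NIC model of 3 exons and 948 bases (ENCODEHT000273288) with 44 and 64. Further leading models had fewer reads: an NNC model of HLA-B (ENCODEHT000565676) with 45 and 30, an NNC model of PDIA3 (ENCODEHT000232124) with 25 and 7, and a NIC model of HLA-F (ENCODEHT000554808) with 13 and 8. The table gives no splice site positions for these models, so which site is unannotated is not shown.

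A larger share of the reads matched only a piece of an annotated transcript in replicate 2 in 8 of the 9 genes, and the difference passed the test in 7. The measure is the ISM share of known and ISM reads. For HLA-B it was 45.1% in replicate 1 (1127 of 2499 reads) and 64.2% in replicate 2 (1739 of 2707), a difference of 19.1 percentage points (adjusted p = 1.27e-41, Fisher's exact test). HLA-C rose from 51.7% to 67.0% (adjusted p = 1.79e-14, Fisher's exact test), and HLA-E from 53.5% to 66.5% (adjusted p = 0.000896, the same exact test). HLA-F rose from 30.8% to 59.2%, TAP1 from 38.9% to 69.6% and PDIA3 from 45.7% to 72.9%, differences of 28.4, 30.7 and 27.2 points (adjusted p = 3.67e-10, 5.81e-13 and 4.75e-16, Fisher's exact test). B2M had the lowest share, 5.99% and 14.7%, and its difference of 8.71 points also passed (adjusted p = 8.22e-37, Fisher's exact test). The size for B2M depended on the models counted. It was 2.84 points with only ISM models classed as suffix, which match the 3′ part of an annotated transcript. That setting left out models classed as suffix and prefix at once, which held 140 and 471 reads of B2M. With models of 2 or more exons it was 13.7 points, and both settings passed the threshold.

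Those 7 of 9 genes compare with 23.2% of the 6615 genes tested that passed in either direction and 23.1% that passed in the same direction, higher in replicate 2. All 7 had more known and ISM reads than the other two, and with a minimum of 100 such reads 49.5% of 2756 genes passed, beside 7 of 7. TAP2 stood at 53.5% and 73.8% (adjusted p = 0.198, Fisher's exact test). TAPBP, with 52 and 20 such reads, stood at 48.1% and 40.0% (adjusted p = 0.889, Fisher's exact test), and a difference of the median size over all genes, 10.7 points, is not detectable at this depth. The median difference over the 9 genes was 19.1 points.

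**Figure D3:**
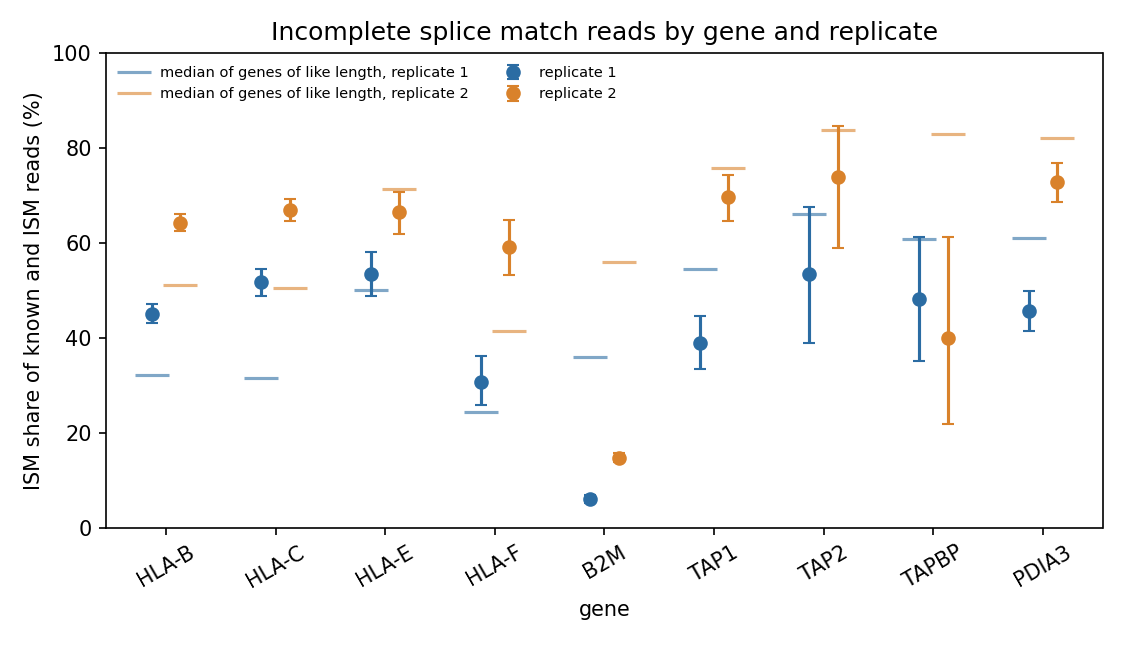
ISM share of known and ISM reads for each gene and library, as points with 95% Wilson intervals from counting error only; dashes give the median of genes whose leading model is within 20% of the same length. B2M lies far below its dashes in both libraries and TAPBP in replicate 2, where it had 20 reads. HLA-B, HLA-C and HLA-F lie above theirs, and replicate 2 is above replicate 1 for all genes but TAPBP.

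Among genes of like length, B2M, TAP1, TAP2, TAPBP and PDIA3 lay below the median and HLA-B, HLA-C and HLA-F above it. The 1313 genes within 20% of the length of the leading B2M model had median shares of 35.9% and 56.0%, well above the 5.99% and 14.7% of B2M. HLA-B lay above the median of its 1148 like genes, which was 32.2% and 51.1%, as did HLA-C and HLA-F, while HLA-E was above its median in replicate 1 and below it, at 71.4%, in replicate 2. TAP1 and PDIA3 lay below theirs, 54.5% and 75.9% for TAP1 and 61.1% and 82.1% for PDIA3. So did TAP2, with medians of 66.0% and 83.8%, and TAPBP, with 60.9% and 82.9%, both from few reads. These positions are descriptions without a test.

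Most ISM reads kept the 3′ end, the end that enters the pore first. Models classed as suffix alone, which keep it, held 72.8% and 68.6% of the ISM reads of the 9 genes, beside 68.4% and 68.0% over all annotated genes. Models counted as suffix and prefix at once held a further 16.6% and 18.6%, beside 10.3% and 10.2%. The share of suffix models alone was 94.98% and 95.5% in HLA-E and 100% in TAP2, where it rests on 23 and 31 reads. In B2M 20.1% and 24.8% were suffix models alone, and 65.4% and 64.6% were in models counted as suffix and prefix at once. All of those were in 1 model of 3 exons and 768 bases (ENCODEHT000277331), with 140 and 471 reads. HLA-B too had its leading ISM model in that class (ENCODEHT000565674, 7 exons, 1393 bases), with 296 and 334 reads. The leading ISM model of HLA-E (ENCODEHT000556314, 7 exons) had 59 and 56 reads and that of HLA-F (ENCODEHT000554817, 6 exons) had 20 and 45, both suffix models.

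In HLA-C, TAP1 and PDIA3 the leading ISM model was a single exon. That of HLA-C (ENCODEHT000564237) had 119 and 232 reads and was listed at 425 bases, the length of the last exon of the leading annotated model. That of TAP1 (ENCODEHT000589150) had 23 and 66 reads at 577 bases, again the length of the last exon. That of PDIA3 (ENCODEHT000236167) had 27 and 72 reads at 441 bases, while the last annotated exon is 2175 bases. All 3 had more reads in replicate 2. The share of reads in models of a single exon was higher in replicate 2 in 9 of 9 genes, and the read-weighted mean model length was shorter in 9 of 9, from 2276 to 1650 bases in TAP1 and from 2386 to 1583 in PDIA3, but only from 1785 to 1755 in B2M. Over all annotated genes it went from 1494 to 1326 bases.

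Genomic reads were a large part of TAPBP, HLA-E and TAP2, but only TAPBP stood high among all genes. Its pooled genomic share, 83.3%, was at percentile 91.1 of the 8898 genes tested, where the median was 13.7%. HLA-E, at 32.6%, and TAP2, at 33.3%, were at percentiles 63.9 and 64.2. The 9 genes together had 4.997% and 8.13% of their reads in genomic models, below the 10.9% and 15.3% over all annotated genes. In TAPBP 1 model of a single interval of 2562 bases (ENCODEHT000597631) held 166 and 257 reads, 70.9% and 89.9% of the gene. The last exon of the leading annotated TAPBP model is 2078 bases, 484 fewer. HLA-E had a genomic model of 832 bases (ENCODEHT000556539) with 104 and 177 reads, HLA-B one of 863 bases (ENCODEHT000565669) with 155 and 376, and TAP2 one of 805 bases (ENCODEHT000587475) with 19 and 13. The table gives no coordinates for these models, so where in the gene they lie is not shown. The difference between the libraries passed in 3 of 9 genes, beside 6.93% of the 8898 genes tested, made up of 6.91% higher in replicate 2 and 0.0225% lower; with a minimum of 100 reads it was 17.3% of 3879 genes. TAPBP differed by 18.5 points (adjusted p = 1.56e-06), HLA-E by 16.7 (adjusted p = 5.21e-11) and HLA-B by 5.93 (adjusted p = 7.22e-19), all by Fisher's exact test.

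The direction of 2 of the gene-level ratios above turned when genomic reads were left out. Counted without genomic models, TAPBP had 63 reads in replicate 1 and 24 in replicate 2. Its log2 ratio, scaled to the reads left, was then -1.45 (adjusted p = 0.000315, exact binomial test) in place of 0.14. HLA-E moved from 0.03 to -0.25 (adjusted p = 0.0438, exact binomial test). Without them the ratio of TAPBP to TAP2 reads was 1.31 (95% exact interval 0.887 to 1.95) in replicate 1 and 0.522 (0.305 to 0.873) in replicate 2, in place of 3.30 and 4.09. In replicate 1 that interval includes equal numbers, and in replicate 2 TAPBP was the lower.

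Each gene had 1 annotated model that took most of its known reads. This was HLA-B-249 (8 exons, 1547 bases), HLA-C-201 (8 exons, 1536 bases), HLA-E-201 (8 exons, 2601 bases), HLA-F-217 (7 exons, 1283 bases), B2M-204 (4 exons, 1705 bases), TAP1-201 (11 exons, 2959 bases), TAP2-201 (12 exons, 5684 bases), TAPBP-234 (8 exons, 3759 bases) and PDIA3-201 (13 exons, 3727 bases). As a share of all reads of the gene the leading model ranged from 10.7% (TAPBP) to 61.6% (B2M) in replicate 1 and from 4.20% to 47.7% in replicate 2, in the same 2 genes.

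Among known reads alone, the leading model had a smaller share in replicate 2 past the threshold in 6 of the 7 genes tested. HLA-C-201 fell from 465 of 599 reads (77.6%) to 294 of 508 (57.9%), the largest difference of the 7 genes with at least 20 known reads in each library (adjusted p = 1.00e-10, Fisher's exact test). B2M-204 fell from 2332 of 3360 (69.4%) to 2497 of 4231 (59.0%; adjusted p = 8.79e-19, Fisher's exact test). TAP1-201 fell from 94.3% to 78.8%, PDIA3-201 from 98.6% to 84.2%, HLA-B-249 from 92.9% to 86.3% and HLA-E-201 from 98.1% to 90.3% (adjusted p = 0.00224, 2.37e-06, 4.28e-06 and 0.0212, Fisher's exact test). In HLA-F the share was 96.1% and 95.4% (adjusted p = 1, Fisher's exact test). These 6 of 7 genes stand beside 12.5% of the 1878 genes tested in either direction, 11% lower in replicate 2 and 1.44% higher. The median difference was -10.4 points over the 7 genes and -2.84 over all genes tested. With a minimum of 50 known reads in each library 19% of 1073 genes passed, beside 6 of 7. TAP2 and TAPBP had too few known reads for the test: TAP2-201 had 16 of 20 and 7 of 11, and TAPBP-234 had 25 of 27 and 12 of 12, higher in replicate 2.

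Nearly all known reads outside the leading models were in models that GENCODE types as retained intron. For the 9 genes together these held 20.4% of known reads in replicate 1 and 34.3% in replicate 2, beside 4.11% and 6.82% in the other annotated genes. Without B2M the shares were 8.63% (250 of 2897) and 20.4% (403 of 1977). The other annotated genes include genes with no such model read, which lowers their share. A share over only the genes with such a model is not given here. HLA-C went from 22.4% to 42.1%, TAP1 from 5.11% (9 reads) to 21.2% (22 reads), PDIA3 from 1.39% (4 reads) to 15.8% (19 reads), and HLA-E from 1.92% (4 reads) to 9.66% (14 reads). The share was higher in replicate 2 in all 7 genes that had such reads. HLA-F and TAPBP had none, which for the 27 and 12 known reads of TAPBP allows Wilson upper limits of 12.5% and 24.2%. These shares overlap with the test of the leading model and carry no test of their own.

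**Figure D4:**
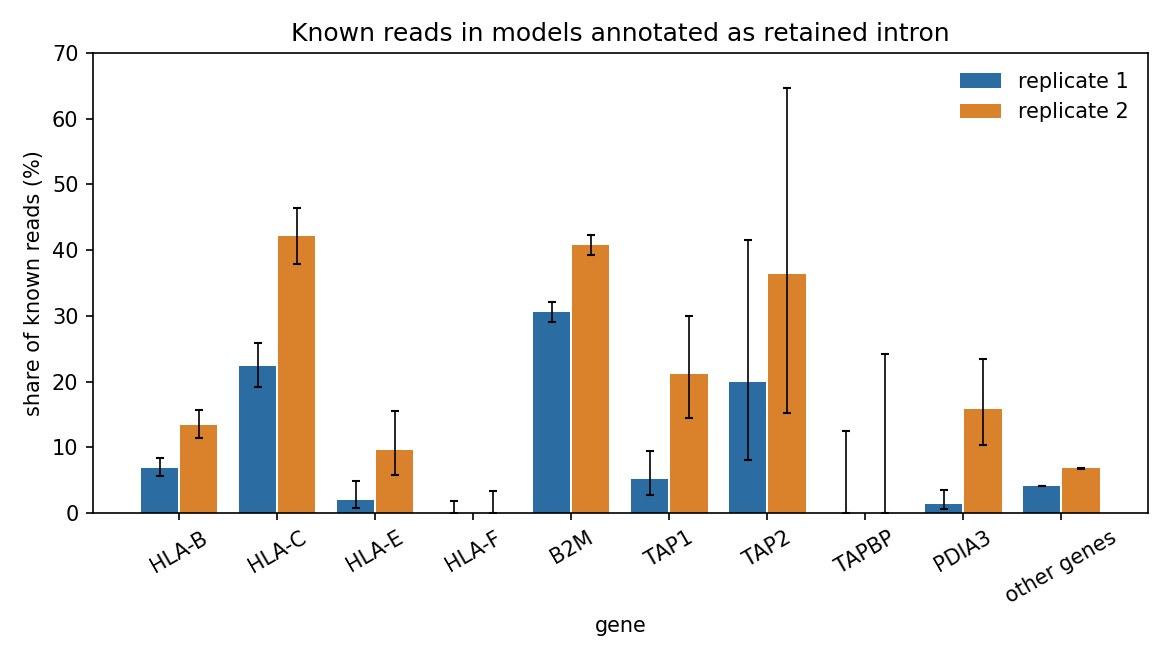
Share of known reads in models annotated as retained intron, as bars from 0 with 95% Wilson intervals from counting error only, for each gene and for all other annotated genes. B2M, at 30.5% and 40.7%, and HLA-C, at 22.4% and 42.1%, stand highest among the genes with over 100 known reads in each library.

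In B2M nearly all of this was 1 model, B2M-213, with 1025 and 1723 reads. It is a single annotated exon of 2329 bases (chromosome 15, 44715817 to 44718145), of which 567 bases lie in exons of B2M-204 and 1762 do not. It begins in intron 2, covers exon 3 and the whole of intron 3 (1250 bases), and ends in the last exon. In HLA-C the leading such model was HLA-C-208 (6 exons, 1880 bases), with 91 and 151 reads, which holds introns 1 and 2, 380 bases in all. TAP1-202 (5 exons, 2542 bases) begins 3836 bases downstream of the start of TAP1-201 and had 9 and 22 reads. TAP2-203 (4 exons, 849 bases) had 4 reads in each library, and PDIA3-206 (2 exons, 739 bases) had 4 and 19. HLA-B-253 (67 and 67 reads), HLA-B-254 (27 and 55) and HLA-C-205 (36 and 45) are named after their values were seen.

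A strand that keeps an intron and a spliced strand differ in the letters before the next exon. For 5 of these models, 40 bases are given 5′ to 3′ on the coding strand from GRCh38: 20 from the end of the intron and the first 20 of the next exon, with the AG that ends the intron in capitals, and below them the same exon joined to the last 20 bases of the exon before it. A read holding the first sequence kept the end of that intron, and a read holding the second was spliced there. For B2M, HLA-B and TAP1 the annotated model begins within the intron shown. In B2M the reading frame ends within exon 3, so 9 of the bases shown are not coding.
B2M intron 2 into exon 3, chr15:44716309-44716348 (+ strand): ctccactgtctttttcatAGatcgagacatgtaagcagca
B2M exon 2 joined to exon 3: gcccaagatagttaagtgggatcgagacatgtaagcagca
HLA-B intron 5 into exon 6, chr6:31354646-31354685 (- strand): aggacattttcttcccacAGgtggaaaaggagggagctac
HLA-B exon 5 joined to exon 6: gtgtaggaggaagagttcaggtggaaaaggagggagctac
HLA-C intron 1 into exon 2, chr6:31271849-31271888 (- strand): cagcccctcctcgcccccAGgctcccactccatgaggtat
HLA-C exon 1 joined to exon 2: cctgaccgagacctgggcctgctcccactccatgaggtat
TAP1 intron 5 into exon 6, chr6:32849099-32849138 (- strand): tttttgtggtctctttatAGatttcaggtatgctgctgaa
TAP1 exon 5 joined to exon 6: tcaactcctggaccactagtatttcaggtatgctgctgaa
PDIA3 intron 11 into exon 12, chr15:43770503-43770542 (+ strand): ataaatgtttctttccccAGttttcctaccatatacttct
PDIA3 exon 11 joined to exon 12: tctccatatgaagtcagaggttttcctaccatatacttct

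The junctions alone do not separate these models from shortened copies of the leading one. In 7 of the 18 retained-intron models read, the junctions are exactly the last ones of the leading model: HLA-B-253 has 1 and HLA-B-254 has 2 of the 7 junctions of HLA-B-249, HLA-C-205 has 1 and HLA-C-208 has 5 of 7, PDIA3-206 has 1 of 12, TAP1-202 has 4 of 10 and TAP2-203 has 3 of 11. A strand of the leading model that stopped at the same exon has those same junctions, and the table gives neither read ends nor bases. Of the 1276 and 2127 reads in retained-intron models, 238 and 363 (18.7% and 17.1%) were in these 7, and 1025 and 1724 (80.3% and 81.1%) were in models of a single exon, which is mostly B2M-213. In the other annotated genes some retained-intron models are themselves the leading model, and these were left out. Of the remaining 22654 and 37400 such reads, 87.7% and 87.6% were in models whose junctions are the last ones of the leading model.

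The number of ISM reads by exon number dipped at several of the places these models occupy, and at other places too. In TAP1 the ISM models other than prefix held 18 and 33 reads at 4 exons and 11 and 21 at 6 exons. At 5 exons, the number in TAP1-202, they held 1 read in each library, while TAP1-202 itself had 9 and 22. In PDIA3 they held 27 and 72 reads at 1 exon, 0 and 1 at 2 exons and 10 and 28 at 3 exons, while PDIA3-206, with 2 exons, had 4 and 19. In HLA-C they held 136 and 248 at 5 exons, 51 and 60 at 6 and 181 and 200 at 7, beside 91 and 151 in HLA-C-208. They held 120 and 235 at 1 exon, 8 and 20 at 2 and 38 and 93 at 3. HLA-C-205, with 2 exons, had 36 and 45. In TAP2 no ISM read had 4 exons, the number in TAP2-203, but the gene had few ISM reads in all. HLA-B showed no dip at 2 or 3 exons, the numbers in HLA-B-253 and HLA-B-254. Its ISM reads were 0 and 1 at 1 exon, 4 and 7 at 2, 36 and 78 at 3 and 145 and 303 at 4. Dips also lay at exon numbers where no retained-intron model was read. In PDIA3 these ISM models held 6 reads in each library at 10 exons. They held 18 and 23 at 5 exons, between 41 and 45 at 4 and 31 and 33 at 6. In TAP1 they held 8 and 26 at 2 exons, between 23 and 66 at 1 and 14 and 31 at 3. In HLA-B they held 256 and 378 at 6 exons, between 331 and 537 at 5 and 329 and 379 at 7. Whether the reads in the retained-intron models hold intron bases was not tested, since the counts of models do not show it.

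**Figure D5:**
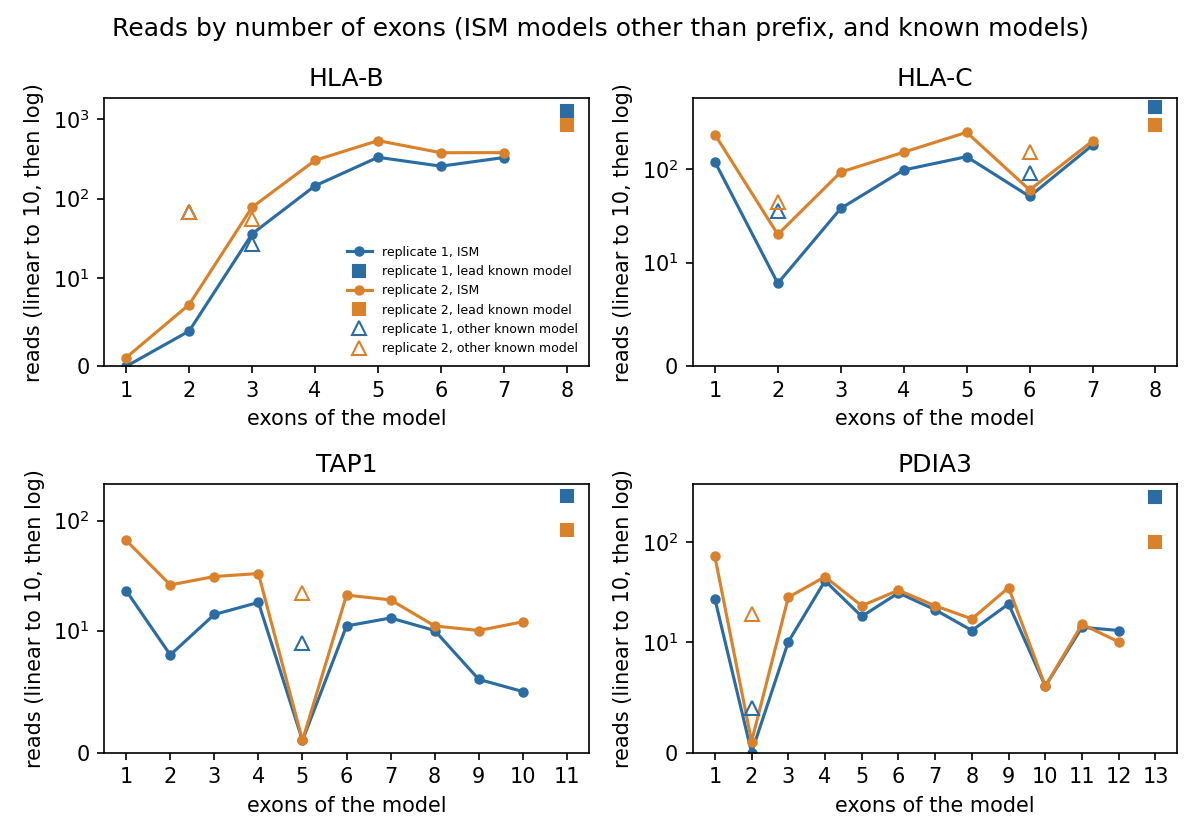
Reads by number of exons for HLA-B, HLA-C, TAP1 and PDIA3, on an axis linear to 10 and logarithmic above; dots are ISM models other than prefix, squares the leading annotated model and open triangles the retained-intron models whose junctions are the last ones of the leading model. The ISM reads of TAP1 drop to 1 at 5 exons and those of PDIA3 to 0 and 1 at 2 exons, where the triangles stand at 9 and 22 and at 4 and 19.

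The other genes of the pathway ranged from 2.10 CPM for the peptidase gene ERAP2 to 1086 for the chaperone gene CALR. Of the 8 chaperone and peptide trimming genes, 7 had enough reads for the gene-level test, where 5.05% of all genes passed; none was higher in replicate 2 and 2 were lower. CALR, a lectin chaperone of the loading complex, stood at 1272 and 899 CPM, a mean of 1086 ± 263 (SD, n = 2; log2 ratio -0.50, adjusted p = 3.01e-19, exact binomial test). HSPA5, the general chaperone of the endoplasmic reticulum, stood at 589.5 and 377 CPM, a mean of 483 ± 150.1 (log2 ratio -0.64, adjusted p = 6.06e-14, exact binomial test). Like PDIA3, both were lower in replicate 2. The 2 lowest of the list were the trimming peptidases LNPEP, at 17.8 ± 0.160 CPM, and ERAP2, at 2.10 ± 0.155. ERAP2 had 3 reads in each library, the limit that a count of 0 allows.

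Of the 5 genes of the immunoproteasome and its activator, which cut the peptides that TAP carries, all were tested. At gene level none was higher in replicate 2 and 2 were lower, beside 2.72% and 2.33% of all genes tested. With a minimum of 50 reads, which all 5 reach, 9.62% of genes passed in either direction. The activator subunit PSME2 stood at 776 and 575 CPM, a mean of 676 ± 142 (SD, n = 2; log2 ratio -0.43, adjusted p = 8.33e-09, exact binomial test), and the catalytic subunit PSMB10 at 342 and 255, a mean of 298 ± 61.5 (log2 ratio -0.42, adjusted p = 0.00107, exact binomial test). PSME1 averaged 509 ± 42.7 and PSMB9 279 ± 23.2 CPM. The ISM share of all 5 was higher in replicate 2 past the threshold, which 23.1% of all genes tested and, with a minimum of 100 reads, 49.5% in either direction also passed.

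Of the 7 regulators of class I transcription, all tested, none was lower in replicate 2 past the threshold, beside 2.33% of all genes tested. The count in the other direction is not reported here. RFXANK, a subunit of the RFX complex on class I and class II promoters, averaged 89.0 ± 14.5 CPM, and the lowest were CREB1 at 18.0 ± 1.62 and RFXAP at 4.82 ± 1.61. The median log2 ratios of the 3 lists were -0.08, -0.17 and 0.02, beside 0.01 over all genes tested.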

How the data were processed

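Direct RNA libraries of GM12878 were analysed from 1 table of transcript models. The authors deposited raw read counts for each model, whole numbers with no normalization, and, as other properties of a model, its exon number and length. The table's name shows the program TALON; alignment with minimap2 to hg38 is per the submitters' processing notes, and settings, read filters and the annotation release are not given in the sources used here. All 23533 known models match GENCODE release 29 in identifier, length and exon number, so positions, model types and sequences come from that release and GRCh38. Reads without a gene name in the annotation entered the library totals only.

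Gene counts are sums over models, and CPM scales them by the library totals of 1360368 and 1510998 reads. Where known models alone were counted or genomic models were left out, levels and log2 ratios were scaled to the reads left. Log2 ratios are replicate 2 over replicate 1 with 0.5 reads added to each count. Tests were fitted over all annotated genes and adjusted by Benjamini-Hochberg (threshold 0.05): a two-sided exact binomial test of gene counts (at least 10 reads), and two-sided Fisher's exact tests of the ISM and genomic shares (at least 20 reads) and of the leading known model (at least 20 known reads in each library). Intervals are 95% and, like the limit of 3 reads for a count of 0, cover counting error only; PCR copies are not made in direct RNA libraries. The scripts were tested on simulated data and used Python 3.11.15, SciPy 1.17.1, pandas 2.3.3, and R 4.3.3 with edgeR 4.0.16 and DESeq2 1.42.0 for scaling factors.

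Named are the 9 genes, the known model with most reads, others with at least 10% of known reads in either library, and the ISM, NIC, NNC and genomic model with most reads if it has at least 5 in each library; of pathway lists, the 2 highest, the 2 lowest and those past the test. Of the genes this rule selects, 1 is not reported here. Members and lists were chosen with earlier results of these data known. The comparison of junctions and of retained-intron models was added after the data were seen. The alternatives were other scaling factors and read minimums, and leaving out models by category, exon number, length or single reads.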

Additional observations from a re-analysis of the deposited data

How the results depend on the processing

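Of the 2 gene-level calls, B2M and PDIA3 passed under every alternative tried, with log2 ratios from 0.30 to 0.47 and from -1.13 to -0.43. No alternative left out B2M-213, which had 1025 and 1723 reads, beside 2332 and 2497 in B2M-204. Counting known models only called 1042 of 5528 genes in place of 537, with 324 higher and 718 lower in replicate 2 against 289 and 248, and moved the median log2 ratio of all genes from 0.01 to -0.26. Under it 5 of the 9 genes were called, with HLA-B (-0.37), HLA-F (-0.79) and TAP1 added, and HLA-C (-0.10), HLA-E (-0.39), TAP1 (-0.62) and TAPBP (-1.004) reversed. Without genomic models 4 of 9 were called, beside 723 of 8758 genes tested, and HLA-E (-0.25) and TAPBP (-1.45) reversed. The split of all genes was 300 higher and 423 lower in replicate 2. Scaled to the reads left, the summed level was 9082 CPM, in place of 8437 on the full library totals. Known models alone leave out ISM reads, whose share was higher in replicate 2 in 8 of the 9 genes and lower in TAPBP. The cause of the reversals was not tested. HLA-F also passed without single-read models (adjusted p = 0.0408, exact binomial test), and gave 0.0518 to 0.129 under the others. Leaving out 1 library gave summed levels from 8209 to 8665 CPM and known shares from 47.4% to 56.0%. The calls on ISM, genomic and leading model shares, 7, 3 and 6 genes, were unchanged under the alternatives tried for them. No paired analysis was possible because all samples form 1 group. Depth limits TAP2 and TAPBP, with 11 and 12 known reads in replicate 2.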
